A study of Mus musculus with 48 samples.

Results

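The circadian clock genes are 10 genes of the molecular clock, taken by name from the 46983 genes listed in each library: Dbp, Per1, Per2, Per3, Nr1d1, Nr1d2, Ciart, Tef, Arntl and Cry1. All 10 were found by symbol, and all 10 were among the 19970 genes tested, each with over 10 counts summed across libraries. RNA was measured in 48 bulk libraries from the brains of C57Black/6 mice, males 3 months old kept under a 12-h light and 12-h dark cycle. In the MCAO groups the middle cerebral artery was coagulated and cut under isoflurane, a permanent occlusion that leaves a small lesion in the parietal cortex. The sham groups, as the study's methods describe them, went through the surgery but kept the artery open. Each was collected at 3 h, 12 h, 24 h, day 3 and day 7, with 4 libraries in each sham group, 5 in the MCAO groups and 4 in the MCAO group at 24 h. The control group is 4 libraries of intact cortical tissue, with no surgery. Mice were deeply anesthetized and perfused before collection, and the sources differ on the tissue. The extraction protocol speaks of the cortical region, lesioned and unaffected parts together, while the series' design text and the paper speak of the forebrain hemisphere or nearly all of it. The labels give the time after surgery and not the hour of the day. Between groups collected at different times, the time elapsed and the phase of the daily cycle cannot be told apart. The labels also do not show whether MCAO and sham libraries of a given time were collected at the same hour. A difference in phase is therefore possible in every comparison below. The paper counts the bulk groups in mice, so the libraries of a group were taken as separate animals, although the labels do not tie a library to an animal.

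The clock works in cells throughout the body, cortex included, as a loop of transcription and repression that takes about a day. BMAL1, encoded by Arntl, pairs with CLOCK and activates genes through E-boxes, among them Per1, Per2, Per3, Cry1, Nr1d1, Nr1d2, Dbp, Tef and Ciart. The PER and CRY proteins and CIART (also called CHRONO) then repress that activator, and the nuclear receptors REV-ERBα and REV-ERBβ, encoded by Nr1d1 and Nr1d2, repress Arntl through ROR elements. DBP and TEF are PAR bZIP transcription factors that carry the rhythm to output genes through D-boxes. Light, glucocorticoids, neuronal activity and body temperature are known inputs of Per genes, and because Arntl and the genes it activates peak at different phases, the level of each gene in a tissue depends on the hour of collection.

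The elements through which the clock proteins act were looked up in promoter windows of RefSeq on the build GRCm38.p6, each with 250 bases before and 50 after a start site. A window was given for 9 of the 10 genes, 12 windows in all. The motifs searched on both strands were the E-box CACGTG, the D-box TTATGTAA or TTACGTAA, the cyclic AMP response element TGACGTCA and the core of the ROR element TAGGTCA or TGGGTCA. No letters of these motifs were shared between matches. The E-box stood in 4 of the 9 genes (Per1, Ciart, Tef and Cry1) and in 8.09% of the 27025 genes with a window, the D-box in 1 gene (Per3) and 1.23% of genes, the ROR core in 1 gene (Arntl) and 7.35% of genes, and the cyclic AMP response element in 0 of the 9 and 2.03% of genes. Counted over the 32851 windows, the shares were 7.15%, 1.06%, 6.45% and 1.79% in the same order. The windows of Dbp, Nr1d1 and Nr1d2 held none of these letters. Printed below, 5′ to 3′ on the strand of the gene and with matches in capitals, are Ciart and Per1, the genes with E-boxes that differed most across the MCAO times, Per3 with its D-boxes, and Arntl with its ROR core. They lie at chr3:95882179-95882478 on the minus strand (Ciart), chr11:69098699-69098998 on the plus strand (Per1), chr4:151044616-151044915 on the minus strand (Per3) and chr7:113207261-113207560 on the plus strand (Arntl).
Ciart: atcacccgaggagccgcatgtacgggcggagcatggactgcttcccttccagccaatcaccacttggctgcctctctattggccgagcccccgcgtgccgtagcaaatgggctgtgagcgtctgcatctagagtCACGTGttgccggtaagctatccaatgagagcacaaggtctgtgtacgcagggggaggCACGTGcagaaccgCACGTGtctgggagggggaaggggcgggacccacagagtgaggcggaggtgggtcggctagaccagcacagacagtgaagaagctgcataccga
Per1: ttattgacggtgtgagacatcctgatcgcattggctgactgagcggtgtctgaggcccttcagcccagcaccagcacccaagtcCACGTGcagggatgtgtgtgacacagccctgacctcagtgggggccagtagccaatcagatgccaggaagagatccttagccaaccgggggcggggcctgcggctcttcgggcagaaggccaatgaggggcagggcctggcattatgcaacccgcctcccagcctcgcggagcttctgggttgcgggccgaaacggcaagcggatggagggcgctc
Per3: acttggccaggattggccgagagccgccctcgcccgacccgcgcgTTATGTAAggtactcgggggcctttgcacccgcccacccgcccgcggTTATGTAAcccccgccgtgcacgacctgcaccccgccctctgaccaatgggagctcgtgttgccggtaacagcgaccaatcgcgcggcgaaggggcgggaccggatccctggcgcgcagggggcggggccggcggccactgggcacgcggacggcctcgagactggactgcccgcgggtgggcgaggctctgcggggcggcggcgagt
Arntl: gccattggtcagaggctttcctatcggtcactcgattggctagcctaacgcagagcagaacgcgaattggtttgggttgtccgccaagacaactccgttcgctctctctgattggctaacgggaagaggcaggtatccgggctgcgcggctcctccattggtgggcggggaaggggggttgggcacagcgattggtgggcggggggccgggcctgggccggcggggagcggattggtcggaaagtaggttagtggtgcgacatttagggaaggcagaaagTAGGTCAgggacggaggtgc
The Ciart window held 3 E-boxes, whose first bases lay 116, 58 and 44 bases before the start site. Per1 had an E-box 166 bases before the start site of the printed window, and Per3 had D-boxes 205 and 158 bases before its start site. The ROR core of Arntl began 30 bases after the start site of the printed window. Per1 and Arntl each have another window, not printed, which held none of these motifs. A match in such a window is a description of the letters and no evidence of binding.

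**Figure D1:**
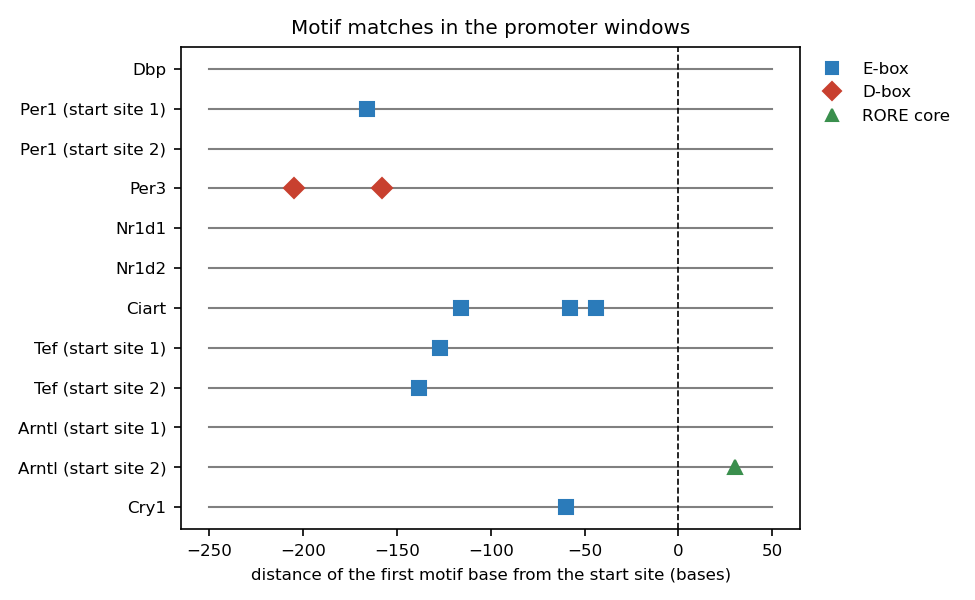
Positions of the motif matches in the 12 promoter windows of 9 clock genes, where the horizontal axis is the distance in bases of the first motif base from the start site (dashed line), each grey line is a window, and symbols mark E-boxes, D-boxes and the ROR element (RORE) core. The 3 E-boxes of Ciart and the 2 D-boxes of Per3 are the windows with more than 1 match.

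In the Gencode vM21 annotation of GRCm38, Dbp lies at chr7:45705088-45710203 and its exons share 539 bases with exons of Sphk2 on the opposite strand. Nr1d1, at chr11:98767932-98775333, shares 263 exonic bases with Thra, which encodes the thyroid hormone receptor alpha, also on the opposite strand. Both overlaps lie at the 3′ end, where this kind of library takes its reads. The kit marks the strand, but the strand setting of the counting is not given in the sources used here, so whether reads on the shared bases were assigned by strand is not known. Sphk2 was at 35.8 ± 11.1 CPM (SD, n = 4) in sham and 42.03 ± 6.46 CPM (SD, n = 5) after MCAO at 12 h, where Dbp differed, with a log2 fold change of 0.24 and an adjusted p of 0.60 in edgeR. Thra was far more abundant than Nr1d1, with group means from 1275 to 1786 CPM against 51.1 to 108 CPM. The part of reads on the shared bases in the values of Nr1d1 was not tested. Tef overlaps 193 exonic bases of the antisense gene Gm17597 and Arntl 33 of Gm45355, away from the 3′ end.

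Each library held between 1522668 and 2826735 counts on genes, with a median of 1935855, and the member with the lowest count in any library was Ciart with 4 reads. Levels are given in CPM, counts relative to the library size after TMM scaling. The 8 neuron markers summed to 5254 to 9854 CPM per library, so RNA of neurons was present in every library. In 2 libraries markers of neighbouring tissue stood apart: choroid plexus markers summed to 495 CPM in control replicate A against at most 52.8 elsewhere, and pituitary markers to 519 CPM in sham replicate C at 3 h against at most 10.7. Striatal markers varied widely, from 129.7 to 3200 CPM, with the highest sum in MCAO replicate D at 24 h and the next, 2132 CPM, in MCAO replicate D at day 3. Without sham replicate C at 3 h, or without MCAO replicate D at 24 h, the number of clock genes called against sham at that time stayed at 0. Markers of the suprachiasmatic nucleus, the master clock of the hypothalamus, summed to 6.84 to 61.3 CPM over the 3 of 4 that passed the count filter, with Six6 below it.

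**Figure D2:**
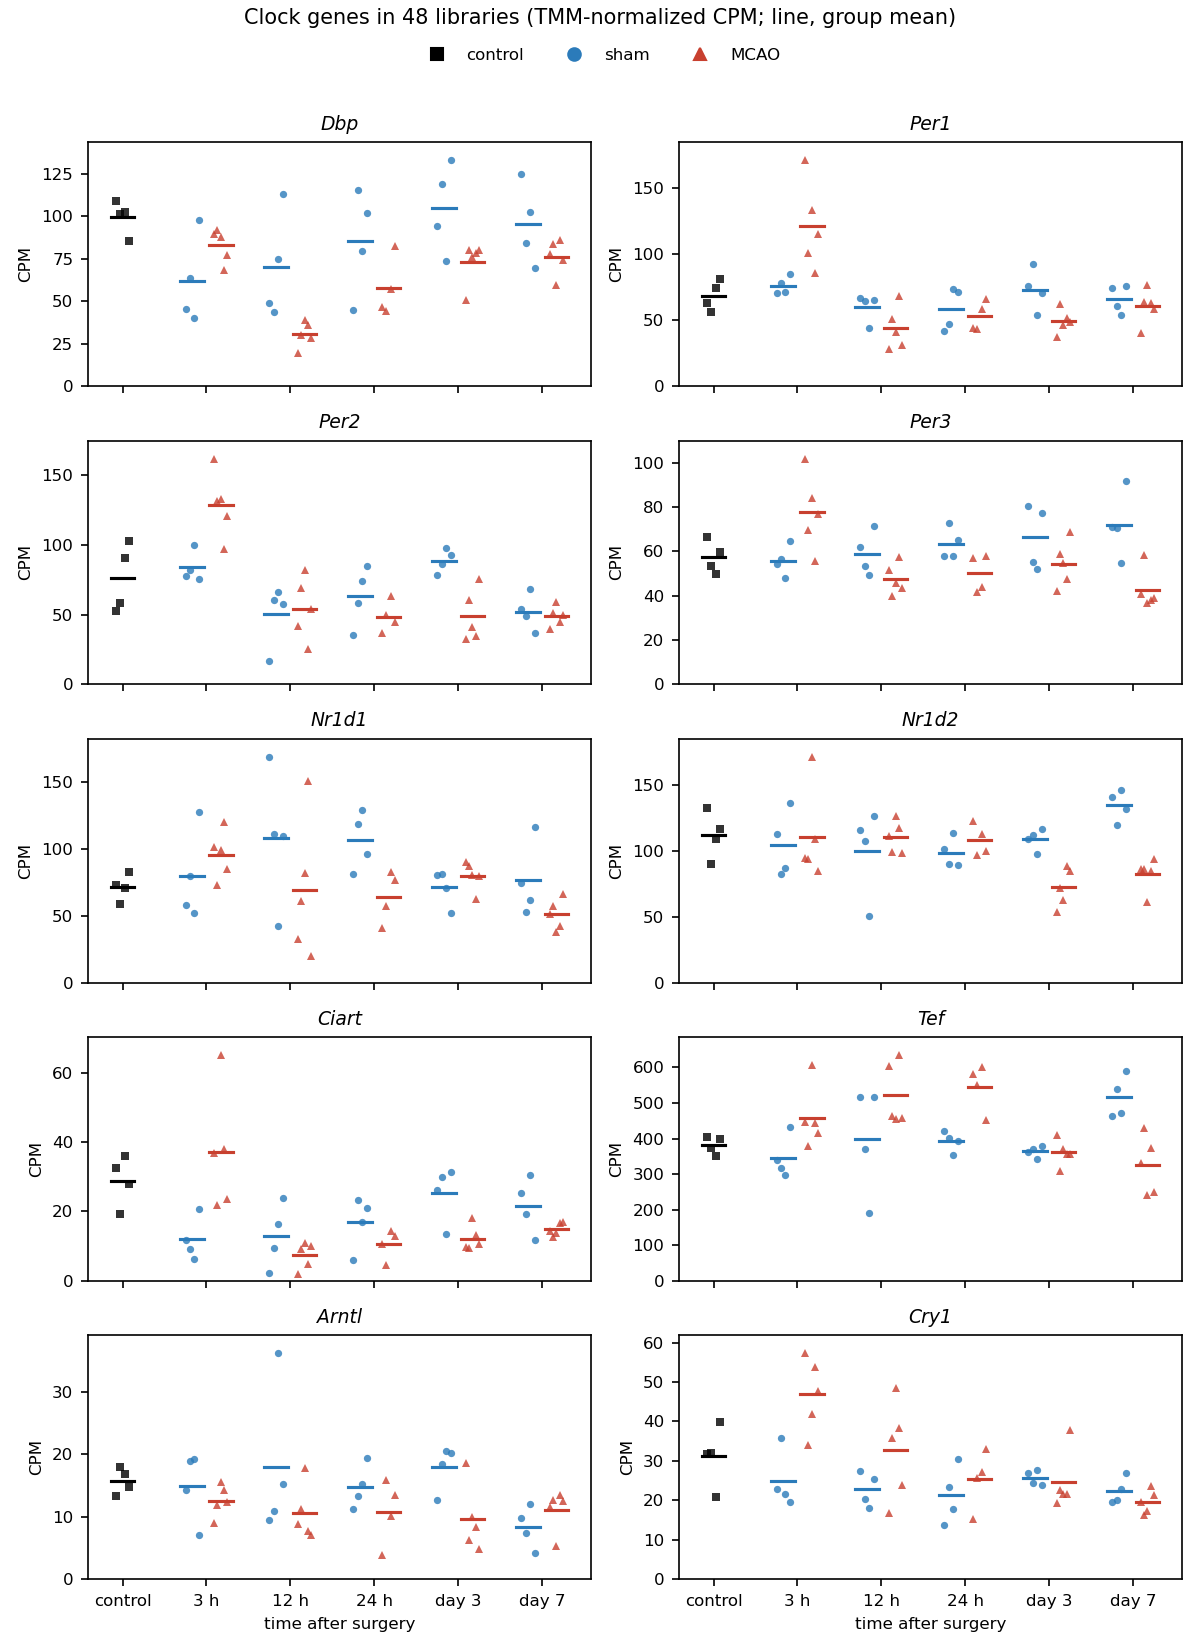
Level of each clock gene in each of the 48 libraries, by time after surgery, where the vertical axis is TMM-normalized CPM from 0, symbols are libraries (black squares control, blue circles sham, red triangles MCAO) and short lines are group means. The MCAO libraries of Per1 at 3 h sit between 85.3 and 171 CPM, and the MCAO libraries of Dbp at 12 h sit between 19.7 and 39.1 CPM, below all 4 sham libraries of Dbp at 12 h.

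In intact cortex the 10 genes were all detected in each of the 4 libraries. Dbp was at 109, 101, 103 and 85.4 CPM, Per1 at 62.5, 55.6, 73.9 and 80.8 CPM, and Ciart at 32.4, 19.1, 36.1 and 27.9 CPM. Per2 ranged from 52.4 to 103 CPM, Per3 from 49.6 to 66.4, Nr1d1 from 59.01 to 82.6, Nr1d2 from 89.9 to 133, Tef from 350.2 to 405, Arntl from 13.4 to 17.98 and Cry1 from 20.9 to 39.9 CPM. The test was the quasi-likelihood F test of edgeR. A call required an adjusted p below 0.01 (Benjamini-Hochberg, over all genes tested) and a log2 fold change beyond 0.58 in size.

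Sham surgery left no called difference in any of the 10 genes. Against control, 0 of 10 were called at 3 h, 12 h, 24 h, day 3 or day 7 in edgeR and in DESeq2, where edgeR called 0.0%, 0.0351%, 0.01%, 0.0% and 0.0% of all genes. At an unadjusted p under 0.05 there were 2 of the 10 at 3 h (3.68% of all genes), 2 at 12 h (5.44%), 1 at 24 h (4.32%), 0 at day 3 (3.66%) and 2 at day 7 (8.04%). A joint test of any difference among the 5 sham times called 0 of 10 genes in edgeR and in DESeq2 and 0.0851% of all genes in edgeR, with 4 of the 10 and 7.66% of all genes at an unadjusted p under 0.05. The group means of Ciart in sham were 12.01 ± 6.23 CPM at 3 h, 12.9 ± 9.22 at 12 h, 16.8 ± 7.73 at 24 h, 25.3 ± 8.12 at day 3 and 21.7 ± 8.03 at day 7 (SD, n = 4 each), beside a control mean of 28.9 ± 7.32. For Ciart at 3 h the log2 fold change from control was -1.27 (95% interval -2.13 to -0.41, adjusted p = 1.0). Dbp in sham had its lowest mean at 3 h (61.95 ± 26.1 CPM) and its highest at day 3 (105 ± 26.3 CPM), with an adjusted p of 0.594 in the joint test. Arntl in sham was between 14.8 and 18.0 CPM up to day 3 and at 8.32 ± 3.36 CPM at day 7, with a log2 fold change of -1.12 from day 3 (adjusted p = 0.22).

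At 3 h after MCAO, 9 of the 10 genes had a log2 fold change over sham above 0 (49.3% of all genes were below 0), though Nr1d2, at 0.09, turned to -0.019 with scaling to the spike-ins. None of the 10 was called, and 0.11% of all genes were. The median log2 fold change was 0.45 over the 10 genes and 0 over all genes. Per1, a light- and stress-inducible repressor, was at 171, 101, 133, 85.3 and 115 CPM in the 5 MCAO libraries and at 70.4, 77.7, 71.3 and 84.5 CPM in the 4 sham libraries. Every MCAO library of Per1 lay above every sham library, and the log2 fold change was 0.67 (SE 0.21, adjusted p = 0.22). Ciart was at 36.8, 21.7, 65.02, 37.9 and 23.7 CPM after MCAO and at 11.9, 9.21, 6.27 and 20.7 CPM in sham, again without overlap. These were the 2 genes whose groups did not overlap upward, where 2.26% of all genes did. The log2 fold change of Ciart was 1.63 (SE 0.40, adjusted p = 0.058), and the same gene had an adjusted p of 0.0055 when no filter on low counts was used. Of 14 lists of cell type and region markers, 3 had summed levels that did not overlap at 3 h, and their part in the values of the clock genes was not tested. The astrocyte markers summed to 3973 to 4259 CPM after MCAO and 4630.4 to 4833 CPM in sham. The granulocyte markers summed to 9.04 to 59.5 and 1.09 to 7.62 CPM, and the choroid plexus markers to 3.01 to 6.83 and 0.576 to 2.73 CPM. Of these lists 0 genes were called in edgeR, with 1 of 6, 3 of 4 and 0 of 4 at an unadjusted p under 0.05.

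Cry1, another repressor of the loop, had a log2 fold change of 0.92 at 3 h (SE 0.24, adjusted p = 0.095), with 57.3, 34.00, 41.9, 53.9 and 47.8 CPM after MCAO and 22.9, 35.7, 21.5 and 19.6 CPM in sham. Per2 was at 162, 132, 133, 97.4 and 121 CPM after MCAO and at 77.9, 82.3, 99.9 and 75.8 CPM in sham. For Per2 and Cry1 the groups overlapped through 1 sham library each. The mean of Ciart in sham at 3 h was below that of control, and against control the log2 fold change of Ciart at 3 h was 0.36 (SE 0.38, adjusted p = 0.83) and that of Per1 0.82 (SE 0.21, adjusted p = 0.064). The comparisons with sham and with control share the MCAO libraries. Of the 10 genes, 6 had an unadjusted p under 0.05 against sham at 3 h, where 8.45% of all genes did, and DESeq2 called 0 of 10.

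At 12 h after MCAO, Dbp fell against sham and was the 1 gene of the 10 called, where 0.0651% of all genes were called lower. Dbp was at 19.7, 30.1, 39.1, 35.9 and 28.6 CPM after MCAO and at 49.1, 43.8, 74.97 and 113 CPM in sham. All 5 MCAO libraries lay below all 4 sham libraries, as in 1.26% of all genes. The log2 fold change of Dbp was -1.21 (SE 0.25, 95% interval -1.73 to -0.70, adjusted p = 0.0064), and 6 of the 10 genes had an unadjusted p under 0.05, where 14.6% of all genes did. DESeq2 also called Dbp alone. The call was lost when any of 5 libraries was left out (MCAO replicates A, B or E, or sham replicates C or D), with adjusted p values for Dbp between 0.0135 and 0.0859, and it was 0.113 with the groups at 12 h alone in the fit. Mapping shares stood apart in some of these libraries. Sham replicate C had 24.0% of reads aligned more than once (median of all libraries 33.5%). MCAO replicates A and E had 28.1% and 30.6% of reads in no feature (median 23.5%). The part of these shares in the Dbp result was not tested. In bulk tissue, fewer cells of a type and less RNA per cell cannot be told apart.

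Against control at 12 h, Dbp fell by 1.71 (log2, SE 0.25, adjusted p = 5.04e-05) and Ciart fell by 2.00 (SE 0.42, adjusted p = 0.0039), and 0.466% of all genes were called lower. Ciart was at 1.85, 9.22, 10.95, 4.71 and 10.1 CPM in the MCAO libraries at 12 h and ranged from 19.1 to 36.1 CPM in control. In sham at 12 h Ciart was at 2.23, 9.38, 16.2 and 23.8 CPM, which overlapped the MCAO libraries, and its log2 fold change against sham was -0.88 (SE 0.44, adjusted p = 0.34). The call of Ciart against control was lost without MCAO replicate A or D or control replicate A or C (adjusted p 0.0124 to 0.0232) and with those 2 groups alone in the fit (0.0124). Control replicate A is the library with choroid plexus markers. Against control at the other times 0 of 10 genes were called in edgeR and in DESeq2. edgeR called 0.13% of all genes at 3 h, 0.275% at 24 h, 3.09% at day 3 and 1.5% at day 7, and at an unadjusted p under 0.05 there were 4 of 10 at 3 h (9.14% of all genes), 4 at 24 h (11%), 4 at day 3 (19.8%) and 5 at day 7 (14.9%). Nr1d2 at day 3 had a log2 fold change of -0.63 against control (SE 0.19, adjusted p = 0.033).

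Markers of other cells differed between the groups at 12 h too, and their part in the Dbp result was not tested. The 4 granulocyte markers summed to 11.1 to 1688 CPM after MCAO and 1.48 to 2.73 CPM in sham, with 2 of 4 called higher (S100a8 and S100a9), as were 0.346% of all genes. The 4 fibroblast markers summed to 60.00 to 134 CPM after MCAO and 41.3 to 53.6 CPM in sham and the 3 pituitary markers to 4.12 to 9.39 and 1.56 to 3.32 CPM. Both were without overlap, with 0 called in edgeR and 1 gene of each list at an unadjusted p under 0.05. The 6 astrocyte markers summed to 3881 to 4638 CPM after MCAO and 4491 to 5921 CPM in sham and the 3 peripheral myeloid markers to 8.74 to 130.4 and 5.06 to 15.1 CPM. These overlapped, with 0 called in edgeR and 3 and 2 genes at an unadjusted p under 0.05. Of the 6 microglia markers P2ry12 was called lower, with sums of 234 to 581 and 266 to 462 CPM. The 6 oligodendrocyte markers summed to 901 to 1911 CPM after MCAO and 1619 to 3684 CPM in sham, with 0 of 6 called in edgeR and 4 at an unadjusted p under 0.05. The 8 neuron markers summed to 7633 to 9354 and 8541 to 9336 CPM, with 0 of 8 called or at an unadjusted p under 0.05. The 5 of 6 striatal markers above the count filter summed to 328 to 1113 CPM after MCAO and 447 to 1633 CPM in sham, with 0 of 5 called and 1 at an unadjusted p under 0.05. DESeq2 was not run on the marker lists. Dbp in MCAO replicate E, which had the highest granulocyte sum, was 28.6 CPM, within the range of the other MCAO libraries. A single library is no test of the part of granulocytes in the Dbp result.

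**Figure D3:**
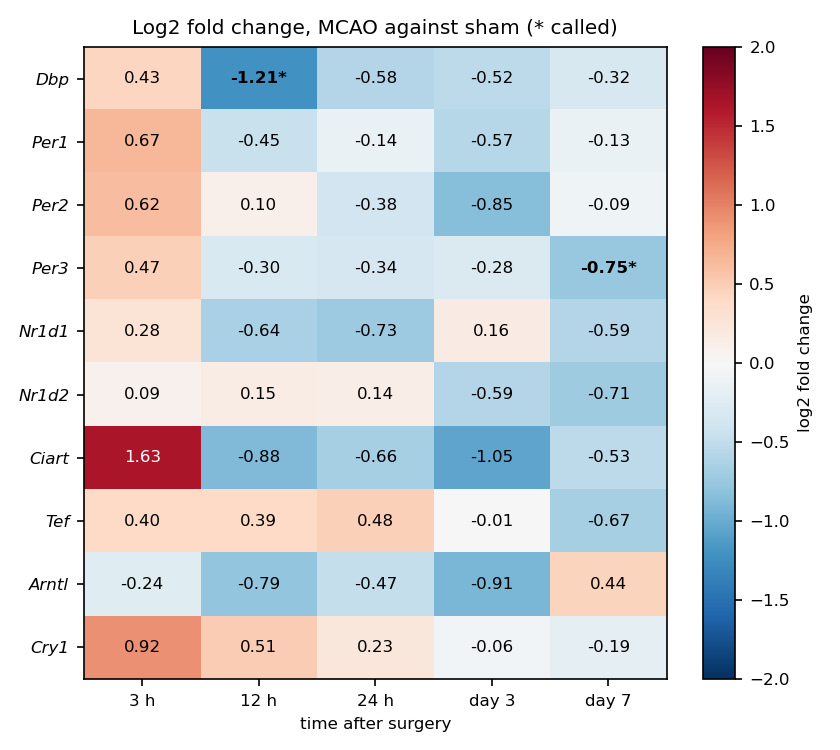
Log2 fold change of each clock gene between MCAO and sham at each time after surgery, from the edgeR fit of all 48 libraries, where colour and number give the value and an asterisk marks a call (Dbp at 12 h and Per3 at day 7). At 3 h 9 of 10 values are above 0, and at day 3 and at day 7 9 of 10 are below 0, with Nr1d2 at 3 h and Tef and Nr1d1 at day 3 changing sign under another scaling.

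At 24 h none of the 10 genes was called in edgeR or in DESeq2 (0.0901% of all genes in edgeR), and 3 had an unadjusted p under 0.05 (8.8% of all genes). Tef had a log2 fold change of 0.48 (SE 0.19, adjusted p = 0.39), with 581, 549.6, 602 and 453 CPM after MCAO against 419.9, 403, 354 and 394 CPM in sham. Tef was the 1 gene whose MCAO libraries all lay above the sham libraries, where 3.76% of all genes did. Nr1d1 had -0.73 (SE 0.34, adjusted p = 0.53) and Dbp -0.58 (SE 0.26, adjusted p = 0.51). Dbp was at 46.3, 44.4, 57.2 and 82.5 CPM after MCAO and 45.01, 116, 79.9 and 102 CPM in sham, with groups that overlapped. The sums of 5 of the 14 marker lists did not overlap at 24 h. Microglia, granulocyte, peripheral myeloid and fibroblast markers were higher after MCAO and astrocyte markers lower (3810.5 to 3994 against 4633 to 5322 CPM). Of these lists 0 genes were called in edgeR, with 3 of 6, 2 of 4, 2 of 3, 1 of 4 and 4 of 6 at an unadjusted p under 0.05. Their part in the values of the clock genes was not tested.

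At day 3, 9 of the 10 genes had a log2 fold change below 0 (48.3% of all genes), where Tef, at -0.01, turned to 0.0032 with the size factors of DESeq2 and Nr1d1, the 1 above 0, to -0.0745 with spike-in scaling. The median was -0.55 over the 10 and 0.01 over all genes, and none was called in edgeR or DESeq2 (4.02% of all genes in edgeR). Per2 was at 32.6, 60.5, 40.9, 34.7 and 75.8 CPM after MCAO and 78.3, 86.3, 97.6 and 92.8 CPM in sham, a log2 fold change of -0.85 (SE 0.27, adjusted p = 0.039). Nr1d2, which encodes REV-ERBβ, was at 53.9, 71.8, 62.4, 88.9 and 85.04 CPM after MCAO and 109, 112, 97.6 and 117 CPM in sham, a log2 fold change of -0.59 (SE 0.19, adjusted p = 0.043). These 2 genes did not overlap between the groups, as 2.81% of all genes did downward. Arntl had -0.91 (SE 0.36, adjusted p = 0.12) and Ciart -1.05 (SE 0.39, adjusted p = 0.091), and 6 of the 10 had an unadjusted p under 0.05 where 21.6% of all genes did. The 6 microglia markers summed to 589.9 to 2152 CPM after MCAO and 256 to 356 CPM in sham, with 4 of 6 called higher (3.76% of all genes were). The peripheral myeloid markers summed to 22.95 to 855 and 6.07 to 16.4 CPM and the granulocyte markers to 4.804 to 590.2 and 0 to 2.77 CPM. Both were without overlap, with 2 of 3 and 2 of 4 called higher. The fibroblast markers summed to 67.9 to 1026 and 52.00 to 118 CPM, with 2 of 4 called higher, and the 8 neuron markers to 5552 to 8672 and 8836 to 9825 CPM, with Snap25 called lower. The part of these cells in the values of the clock genes was not tested.

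At day 7, Per3 fell and was the 1 gene of 10 called, where 1.43% of all genes were called lower. At an unadjusted p under 0.05 there were 3 of 10 (23.5% of all genes), and 9 of the 10 log2 fold changes were below 0 (45.4% of all genes). Per3, a PERIOD paralog of lesser weight in the loop, was at 40.96, 58.5, 36.9, 37.9 and 38.8 CPM after MCAO and 70.9, 70.5, 54.5 and 91.7 CPM in sham. MCAO replicate B lay above the lowest sham library, so the groups overlapped. The log2 fold change of Per3 was -0.75 (SE 0.18, 95% interval -1.11 to -0.39, adjusted p = 0.0044). The call was lost without any of 6 libraries (MCAO replicates C, D or E, or sham replicates A, B or D), with adjusted p values of 0.0106 to 0.0456, with the 2 groups alone in the fit (0.0267), and with scaling to the spike-ins (0.0442).

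Nr1d2 at day 7 was at 85.95, 86.5, 61.3, 84.9 and 93.9 CPM after MCAO and 141, 119.9, 146 and 132 CPM in sham, a log2 fold change of -0.71 (SE 0.19, adjusted p = 0.012). Tef was at 332, 430.0, 242, 372 and 250.5 CPM after MCAO and 464, 539, 472 and 589 CPM in sham, a log2 fold change of -0.67 (SE 0.18, adjusted p = 0.011). Both genes had no overlap between groups, as 5.11% of all genes did downward, and both were called by DESeq2. Their sham groups at day 7 had the highest sham mean of each gene, and against control the log2 fold change at day 7 was -0.44 for Nr1d2 (adjusted p = 0.24) and -0.23 for Tef (adjusted p = 0.60). The microglia markers summed to 732 to 2915 CPM after MCAO and 377 to 511 CPM in sham at day 7, with 3 of 6 called higher (2.07% of all genes were), and among the neuron markers Rbfox3 was called lower. The peripheral myeloid markers summed to 92.9 to 4062 and 7.63 to 11.4 CPM, with 2 of 3 called higher, and the fibroblast markers to 139 to 4187 and 38.8 to 71.96 CPM, with 3 of 4 called higher. Oligodendrocyte precursor markers (35.7 to 94.6 and 13.2 to 28.9 CPM) and granulocyte markers (5.64 to 9.596 and 0.456 to 4.58 CPM) were without overlap too. The markers of the suprachiasmatic nucleus summed to 9.52 to 19.4 CPM after MCAO and 31.3 to 55.5 CPM in sham, again without overlap. Of the 3 tested, Vip, which cortical interneurons also express, was called lower by 1.59 (log2, SE 0.33, adjusted p = 0.00136). The part of these cells and regions in the values of Per3, Nr1d2 and Tef was not tested.

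The MCAO times differed among themselves in 7 of the 10 genes, where 7.06% of all genes were called in the joint test, and 8 of 10 had an unadjusted p under 0.05 (28.2% of all genes). The adjusted p was 4.18e-07 for Per1, 2.08e-05 for Per2, 5.60e-05 for Ciart, 1.67e-04 for Dbp, 5.96e-04 for Cry1, 0.00128 for Per3 and 0.00277 for Tef, and it was 0.023 for Nr1d2, 0.20 for Nr1d1 and 0.90 for Arntl. Without the 3 h groups only Dbp and Tef kept their calls, and without the 12 h groups Dbp lost its call. The share of 7.06% belongs to the test of all 5 times. The shares of all genes in the reduced tests are not given here. Per3 was not called without MCAO replicate A at 3 h. This test compares groups that also differ in hours since surgery and may differ in hour of day, which cannot be told apart here. The test of whether the MCAO effect over sham differed among the 5 times called 0 of 10 genes in edgeR (0.491% of all genes), with 8 at an unadjusted p under 0.05 (17.8% of all genes) and the lowest adjusted p 0.0167 for Ciart and 0.0174 for Tef. DESeq2 called 4 there, Dbp, Per3, Ciart and Tef. Its own share of all genes is not given here, and the 0.491% belongs to edgeR alone.

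From 3 h to 12 h after MCAO, a comparison added after the values were seen, 4 of the 10 genes fell, the repressors Per1, Per2 and Ciart and the output activator Dbp, where 0.265% of all genes were called lower. Per1 went from a mean of 121 ± 32.9 to 43.7 ± 16.4 CPM (SD, n = 5 each) and fell by 1.47 on the log2 scale (SE 0.20, adjusted p = 1.61e-05). Dbp went from 83.01 ± 9.96 to 30.7 ± 7.49 CPM and fell by 1.44 (SE 0.24, adjusted p = 3.58e-04). Ciart went from 37.02 ± 17.3 to 7.37 ± 3.92 CPM and fell by 2.36 (SE 0.40, adjusted p = 3.70e-04). Per2 went from 129 ± 23.4 to 54.4 ± 22.2 CPM and fell by 1.24 (SE 0.26, adjusted p = 0.0054). In these 4 genes every library at 12 h lay below every library at 3 h, as in 1.19% of all genes. Per3 had a log2 fold change of -0.70 (SE 0.17, adjusted p = 0.0182), and DESeq2 called it with the other 4.

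The call of Per2 was lost without any of 6 libraries (replicates A, D or E at 12 h, or A, B or E at 3 h), with adjusted p values of 0.0126 to 0.0328, and with the 2 groups alone in the fit (0.0222), while Dbp, Per1 and Ciart kept theirs without any of the 10 libraries. In sham the same interval gave log2 fold changes of 0.20 for Dbp (SE 0.26), -0.35 for Per1 (SE 0.22), -0.73 for Per2 (SE 0.29) and 0.16 for Ciart (SE 0.44). In sham 0 of 10 genes were called in edgeR and in DESeq2 (0.015% of all genes in edgeR), with 1, Per2, at an unadjusted p under 0.05 (4.66%). The difference of the 2 intervals was -1.64 for Dbp (95% interval -2.36 to -0.92, adjusted p = 0.10), -2.52 for Ciart (-3.72 to -1.32, adjusted p = 0.24), -1.12 for Per1 (-1.73 to -0.51, adjusted p = 0.37) and -0.51 for Per2 (-1.30 to 0.27, adjusted p = 0.81). In edgeR and DESeq2 0 of the 10 passed this test (0.01% of all genes in edgeR), with 5 at an unadjusted p under 0.05 (7.12%), so a fall particular to MCAO was not shown. Dbp was called without sham replicate D at 3 h, and also with no filter on low counts.

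**Figure D4:**
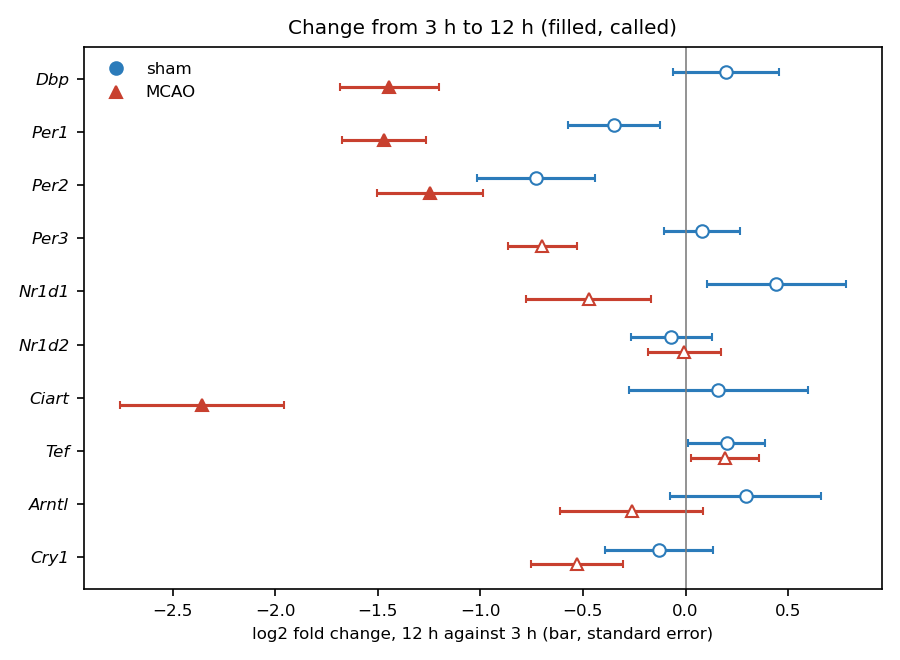
Log2 fold change of each clock gene from 3 h to 12 h after surgery, in sham (blue circles) and after MCAO (red triangles), with the standard error as a bar and filled symbols for calls. The 4 filled are Dbp, Per1, Per2 and Ciart after MCAO, and the sham values lie between -0.73 and 0.44.

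The order of group means differed between genes. Per1, Per2, Per3, Ciart and Cry1 had their highest mean of the 11 groups in MCAO at 3 h, and Tef in MCAO at 24 h (546 ± 65.7 CPM, n = 4). Dbp and Arntl had theirs in sham at day 3, Nr1d1 in sham at 12 h and Nr1d2 in sham at day 7. The lowest mean was in MCAO at 12 h for Dbp, Per1 and Ciart, in MCAO at 24 h for Per2, in MCAO at day 3 for Nr1d2 and in MCAO at day 7 for Per3, Nr1d1, Tef and Cry1, while that of Arntl was in sham at day 7. The ratio of the highest to the lowest group mean was 5.02 for Ciart, 3.43 for Dbp, 2.76 for Per1, 2.66 for Per2, 2.40 for Cry1, 2.16 for Arntl, 2.12 for Nr1d1, 1.86 for Nr1d2, 1.82 for Per3 and 1.68 for Tef. After 12 h, 0 of 10 genes were called between successive MCAO times in edgeR and in DESeq2. edgeR called 0.015% of all genes from 12 h to 24 h, 0.486% from 24 h to day 3 and 0.0351% from day 3 to day 7, and the genes at an unadjusted p under 0.05 were 1, 2 and 2 of the 10 (7.07%, 15.2% and 11.6% of all genes). Dbp had the largest such difference, 0.91 on the log2 scale from 12 h to 24 h (SE 0.26, adjusted p = 0.46), with means of 57.6 ± 17.6 CPM at 24 h, 72.98 ± 12.6 at day 3 and 76.2 ± 10.4 at day 7.

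Arntl, the activator of the loop, had means of 12.6 ± 2.48, 10.5 ± 4.32, 10.8 ± 5.23, 9.63 ± 5.42 and 11.1 ± 3.29 CPM at the successive MCAO times, the smallest ratio of the highest to the lowest MCAO mean of the 10 genes (1.31). Over the sham means the ratio of Arntl was 2.16, the largest of the 10 genes. Its counts ran from 9 to 98 reads per library, so small differences in it were poorly resolved. Cry1 went from 46.98 ± 9.32 CPM at 3 h to 32.6 ± 12.5, 25.3 ± 7.37, 24.5 ± 7.57 and 19.6 ± 2.94 CPM. Tef was at 458 ± 87.2, 523 ± 88.97, 546 ± 65.7, 361 ± 36.03 and 325 ± 80.4 CPM, and its log2 fold change from 24 h to day 3 was -0.60 (adjusted p = 0.0653). Averaged over the 5 times, the MCAO effect over sham was -0.44 for Dbp (SE 0.11, adjusted p = 0.0038), which is under the fold required for a call, and 0 of 10 genes were called in edgeR or DESeq2 (4.89% of all genes in edgeR), with 6 at an unadjusted p under 0.05 (26.4%). Without the 3 h groups Dbp and Ciart were called.

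Relative to genes of like abundance, libraries of one group varied most for Nr1d1 and Ciart. The biological coefficient of variation was 32.9% for Nr1d1 and 38.1% for Ciart, against 21.2% and 26.3% on the trend of genes of like abundance, and their ratios stood at percentiles 93.0 and 90.3 of all genes. Nr1d1 at 12 h was at 169, 112, 42.5 and 109.8 CPM in sham and 33.00, 61.2, 82.4, 151 and 19.7 CPM after MCAO, with wide overlap. The lowest sham library for Nr1d1, replicate C, was also the lowest of that group for Nr1d2 (50.2 CPM), Tef (189 CPM) and Per1 (43.6 CPM) and the highest for Arntl (36.2 CPM). That library also had the lowest share of reads aligned more than once in the series (24.0%), whose part in these values was not tested. Replicate A of the same group had the highest Nr1d1 and the lowest Per2 (16.8 CPM) and Ciart (2.23 CPM). The log2 fold change of Nr1d1 against sham at 12 h was -0.64 (SE 0.32, adjusted p = 0.345), and it ran from -1.13 without MCAO replicate D to -0.36 without sham replicate A.

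Within groups some clock genes moved together from library to library. With group means removed, 6 of 45 pairs had a permutation p under 0.05 after Benjamini-Hochberg adjustment over the 45, from 100000 two-sided permutations within groups over 48 libraries. The values of a library share its scaling and depth. Dbp and Ciart had the strongest relation (Pearson's r = 0.70, permutation p = 5.00e-05, adjusted p = 0.0023; Spearman's rho = 0.62, permutation p = 2.00e-04). Without the 2 libraries farthest from the median of Dbp r was 0.63, and it was 0.49 in the 24 MCAO libraries and 0.81 in the other 24.

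Per3 and Arntl moved in opposite directions (r = -0.47, permutation p = 0.0021, adjusted p = 0.029; rho = -0.45, permutation p = 0.0047), with r = -0.51 without the 2 farthest libraries. Per1 and Nr1d1 had r = 0.56 (permutation p = 0.00095, adjusted p = 0.021; rho = 0.51, permutation p = 0.0017) and 0.44 without 2 libraries, and Nr1d1 and Cry1 r = 0.50 (permutation p = 0.0056, adjusted p = 0.042; rho = 0.51, permutation p = 0.0017) and 0.48 without 2. Nr1d2 and Tef had r = 0.64 (permutation p = 0.0025, adjusted p = 0.029), 0.43 without 2 libraries, and their rho of 0.43 had an adjusted permutation p of 0.059. Per3 and Tef had r = 0.43 (permutation p = 0.0033, adjusted p = 0.030) and 0.41 without 2 libraries, with a rho of 0.41 and an adjusted permutation p of 0.058.

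**Figure D5:**
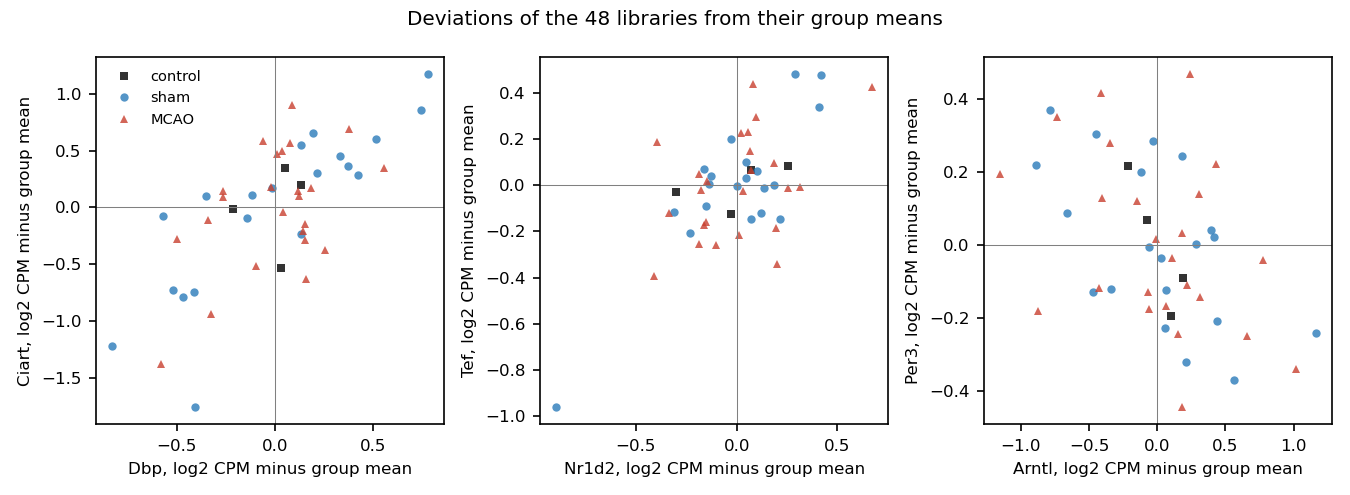
Deviations of the 48 libraries from their group means on the log2 CPM scale, for Dbp and Ciart, Nr1d2 and Tef, and Arntl and Per3, with symbols for control (black squares), sham (blue circles) and MCAO (red triangles) libraries. Dbp and Ciart vary together, r = 0.70, and Arntl and Per3 run in opposite directions, r = -0.47, while 1 sham library at the lower left of the middle panel, sham replicate C at 12 h, lies far from the rest.

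Of 29 other clock genes on a textbook list, 12 of the core and loops, 8 kinases, ligases and regulators and 9 outputs, all were tested. Against sham 0 were called at 3 h, 12 h or 24 h in edgeR, 1 was higher at day 3 (1 of 29, where 3.76% of all genes were called higher) and 2 were lower at day 7 (1.43% of all genes were called lower), and 0 were called in the joint test of the sham times. At an unadjusted p under 0.05 there were 4 at 3 h (8.45% of all genes), 6 at 12 h (14.6%), 5 at 24 h (8.8%) and 5 in the joint test of sham (7.66%), and DESeq2 was not run on this list. Hlf, a PAR bZIP factor like Dbp and Tef, was at 168 ± 19.8 CPM after MCAO (n = 5) and 369 ± 80.1 CPM in sham (n = 4) at day 7, a log2 fold change of -1.14 (SE 0.25, adjusted p = 0.0021). Rorb, a nuclear receptor of the ROR family, was at 113 ± 17.3 and 289 ± 45.1 CPM, a log2 fold change of -1.35 (SE 0.29, adjusted p = 0.0018). The 8 neuron markers at day 7 summed to 5254 to 8459 CPM after MCAO and 8348 to 9124 CPM in sham. The part of neurons in the values of Hlf and Rorb was not tested. Tspan4, a tetraspanin, was at 48.7 ± 24.5 CPM after MCAO and 10.7 ± 4.06 CPM in sham at day 3, a log2 fold change of 2.19 (SE 0.34, adjusted p = 1.12e-05). The MCAO times differed in 3 of the 29 (Cry2, Klf9 and Tspan4), a share near the 7.06% of all genes called. Klf9, a glucocorticoid-responsive Krüppel-like factor with a daily rhythm, went from 1296 ± 228 to 603 ± 159 CPM from 3 h to 12 h after MCAO, a fall of 1.10 on the log2 scale (SE 0.20, adjusted p = 0.0011).

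Genes that respond to known inputs of the clock moved over the same times, and their part in the clock values was not tested. The 10 glucocorticoid-responsive genes summed to 636 to 1071 CPM at 3 h after MCAO against 442 to 602 in sham, and 313 to 839 at 12 h against 307 to 459.9. Among them 6 of 10 differed among the MCAO times (7.06% of all genes), and Tsc22d3 fell by 1.31 (log2, SE 0.23, adjusted p = 5.23e-04) from 3 h to 12 h. The 10 activity-induced genes summed to 863 to 3069 CPM at 3 h after MCAO and 646 to 887 in sham. Fosb was higher than in sham at 3 h by 2.81 on the log2 scale (SE 0.54, adjusted p = 0.0065), and Fos and Fosb both fell from 3 h to 12 h, Fosb by 3.78 (SE 0.53, adjusted p = 1.61e-05). The 10 temperature-related genes summed to 4924 to 8504 CPM at 12 h after MCAO and 3784 to 4448 in sham, with 4 called higher (Hspa1a, Hspa1b, Hsp90aa1 and Hsp90ab1), where 0.346% of all genes were. Body temperature was held with a heating pad during surgery, and the paper's methods give none afterwards. The levels of these genes are therefore no measure of temperature. In MCAO replicate A at 3 h, the library with the highest sum of both the glucocorticoid-responsive (1071 CPM) and the activity-induced genes (3069 CPM), Per1, Per2, Per3 and Cry1 were each at their highest of all 48 libraries. Arntl (9.04 CPM) was the lowest of its group there, and the remaining clock genes lay inside the range of the group. The next highest activity-induced sum was in MCAO replicate B at 3 h (1468 CPM). There Cry1 (34.0 CPM), Ciart (21.7 CPM), Nr1d1 (73.2 CPM) and Tef (379 CPM) were the lowest of their group. Dbp (92.1 CPM) was the highest, and the remaining clock genes lay between. The next highest glucocorticoid-responsive sum was in MCAO replicate C at day 3 (894 CPM). Ciart (18.0 CPM) was the highest of that group there, and the others, with Per1 at 45.9 and Per2 at 40.9 CPM, lay inside its range. Single libraries are no test of these inputs.

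The genes whose 11 group means were most like those of Dbp, among 1832 genes with a mean of at least 10 CPM and a range of at least 1 on the log2 scale, were Ephb1 (Pearson's r = 0.89), C1qtnf4 (0.87), Hdac9 (0.85), Vtn (0.85) and Muc3a (0.84). Those most like Arntl were Tmem170b (0.89), Ccp110 (0.86), Emx2 (0.85), Psd2 (0.85) and Gpr27 (0.84). Among the clock genes themselves Per1 and Per2 were most alike over the group means (0.87), followed by Dbp and Ciart (0.85), and Tef and Arntl were least alike (-0.50). These are descriptions over 11 means of the same libraries.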

How the data were processed

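Libraries were made with the QuantSeq 3′ FWD kit with ERCC transcripts added. Reads were trimmed by the authors, who took out mitochondrial and ribosomal ones with SortMeRNA, mapped the others with STAR 2.5.2b to GRCm38, and used htseq-count (union mode, Gencode vM8). The deposited values used are these raw counts per gene, 1 table per library. A second deposited table of all libraries, given in the methods as variance-stabilized with DESeq2, was not used. Rows that name no gene stayed out, with a median share of 23.5% of reads in no feature, 0.4% in several and 33.5% aligned more than once. Symbols came from Gencode vM21 and matched 46488 of 46983 identifiers.

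One model held the 48 libraries in 11 groups (edgeR 4.0.16, R 4.3.3, TMM, glmQLFit, glmQLFTest), with genes kept at over 10 counts in total. Joint tests were called on the adjusted p alone. Standard errors are the log2 fold change over the root of F, and 95% intervals follow from them. The scripts were tested on simulated counts. Correlations used log2 CPM with a prior count of 2. Python 3.11.15, numpy 2.4.6, scipy 1.17.1, pandas 2.3.3 and matplotlib 3.10.9 were used. Alternatives were DESeq2 1.42.0, its size factors, other count filters, spike-in scaling, the compared groups alone, a replicate block, and leaving out each library.

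The 10 genes and the lists were chosen with earlier results of these data known. All 10 genes are described. Other clock genes are named where called against sham or among the sham times, and the likeness rule names the 5 genes nearest to Dbp and to Arntl. The companion genes named, Klf9 and Cry2 were picked after their values were seen.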

Additional observations from a re-analysis of the deposited data

Results flagged for a closer look

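Among 110 groups of 4 or 5 libraries of the 10 genes, 7 had a library whose gap to the nearest of the others was large for the range of its group, where chance gives about 1 in 20. Dbp in MCAO replicate A at day 3 was at 50.7 CPM, with the others between 75.9 and 80.2 CPM. Per1 in sham replicate C at 12 h was at 43.6 CPM, with the others between 64.1 and 66.4. Per3 in MCAO replicate B at day 7 was at 58.5 CPM, with the others between 36.9 and 41.0. Nr1d2 was at 172 CPM in MCAO replicate C at 3 h (others 84.7 to 109) and at 61.3 CPM in MCAO replicate C at day 7 (others 84.9 to 93.9). Arntl in the same library at day 7 was at 5.35 CPM (others 11.5 to 13.4), and Cry1 in MCAO replicate E at day 3 was at 37.9 CPM (others 19.2 to 22.6). MCAO replicate C at day 7 also had the lowest sums of neuron markers (5254 CPM) and striatal markers (129.7 CPM) of the 48 libraries, and its part in these values was not tested.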

How the results depend on the processing

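The numbers of clock genes called stayed within 1.5 times in 528 of 567 repeats, where 0 that stayed 0 counted as kept. Most comparisons called 0 in the main fit, so this share says little about the calls that were made. Against sham at 3 h 1 gene was called with no filter. At 12 h 0 were with the compared groups alone and 0 to 1 with a library left out. At day 3 scaling to the spike-ins called 1. At day 7 DESeq2 called 3, filterByExpr 2, no filter 3, the compared groups alone 0, spike-in scaling 0, and omissions of a library 0 to 2. Against control, MCAO at 12 h gave 1 with those groups alone and 1 to 2 with a library left out, and at day 3 spike-in scaling gave 1. Among the MCAO times 2 were called without the 3 h groups. For the effect differing among times DESeq2 called 4, no filter 3 and omissions 0 to 2, and for the effect at 12 h against that at 3 h no filter 1 and omissions 0 to 1. The mean over times gave 2 without the 3 h groups. Leaving out the 3 h or 12 h groups was chosen after seeing the data. The causes were not tested, other than that some fits held fewer libraries or genes.

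Values of single genes kept direction and call in 937 repeats, lost a call in 26, gained one in 11 and changed sign without a call in 18. With spike-in scaling the log2 fold change against sham was -0.0192 for Nr1d2 at 3 h, -0.038 for Per2 at 12 h and -0.0745 for Nr1d1 at day 3. That scaling moved the median of all genes by -0.22 at day 3 and 0.14 at 24 h and day 7. Tef at day 3 was 0.0032 with DESeq2 and with its size factors. With a library left out the values ran from -0.122 to 0.2378 for Nr1d2 at 3 h, -0.1809 to 0.2753 for Per2 and -0.0816 to 0.2896 for Nr1d2 at 12 h, -0.0626 to 0.0375 for Tef and -0.2763 to 0.0124 for Cry1 at day 3, -0.2427 to 0.0678 for Per2 at day 7, and -0.0895 to 0.1872 for Nr1d2 from 3 h to 12 h after MCAO.

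The labels do not say whether the replicate letters pair MCAO and sham libraries. Of 20 same-letter pairs 8 had a correlation of deviations over 0.1 (median 0.046). Of 76 different-letter pairs 20 did (median 0.001). These shares do not settle whether the letters pair libraries. The fit with the replicate block changed no count of clock genes, and Tef at day 3 was 0.0326 with the replicate block. Depth limits Ciart and Arntl, which had as few as 4 and 9 reads in a library.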
